A study of Mus musculus with 4 samples.

Results

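Genes that mark mature fat cells were read at higher intensity in mouse mammary tumours that carried ETV6-NTRK3 together with TAM67 than in tumours that carried ETV6-NTRK3 alone, and far more so in 1 of the 2 TAM67 tumours than in the other. The set has 10 genes: Adipoq, Fabp4, Car3, Retn, Cfd, Plin1, Pck1, Scd1, Pparg and Cidec. They were chosen with the difference between these same tumours already known, so their values between the groups are a description and are given without a test. All probe sets whose only gene symbol was one of the 10 names were taken, which gave 17 probe sets of 8 genes out of 45101 probe sets on the array. No probe set was named Cfd, the complement protease adipsin, or Plin1, the main coat protein of the fat cell's lipid droplet, and both were not analysed here.

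The data are 4 Affymetrix mouse genome arrays, 1 for each tumour. All 4 tumours grew in nude mice, which lack mature T cells, after transplantation of Eph4 cells, a line of mammary epithelium from the mouse, and all carried the fusion oncogene ETV6-NTRK3 brought in by transduction. The 2 tumours titled Eph_EN carried the fusion alone and are called EN here, and the 2 titled Eph_EN_DN also expressed TAM67, a dominant negative c-Jun, and are called EN-TAM67. The study asked how far the fusion's tumours depend on the AP-1 complex. The labels give no age, no transplantation site and no statement that tumours of a group came from separate mice or cultures, so a p-value covers the spread among these 4 arrays alone, and part of that spread may be technical.

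White fat cells store triglyceride in a single large lipid droplet and release hormones into the blood. The nuclear receptor PPAR gamma, made from Pparg, switches on most of the genes that define them, together with C/EBP factors. The mammary gland lies in a pad of such cells, and its epithelium grows in contact with them. In a whole tumour, more fat cells and more RNA of these genes in each cell cannot be told apart.

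Array medians were 35.6 and 35.9 in EN tumours, against 38.1 and 40.8 in EN-TAM67. With 2 arrays a group, precision is limited. The ratio of 3' to 5' signal of Gapdh, a sign of RNA quality, ran from 0.938 to 1.04 in EN and from 1.11 to 1.17 in EN-TAM67 tumours. The 18S ribosomal RNA probe sets averaged 5.43 and 6.40 in EN tumours, against 6.76 and 7.43 in EN-TAM67 on the log2(intensity + 16) scale, highest in EN-TAM67 tumour 2, where the fat genes were also highest. The part of these measures in the results was not tested. The luminal keratin genes Krt8 and Krt18, which mark the epithelial line, were read in every tumour: Krt8 measured 2048 and 2017 intensity units in EN tumours, against 1596 and 1470 in EN-TAM67.

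Adipoq encodes adiponectin, a hormone made almost only by fat cells. It measured 76.5 and 35.7 intensity units in EN tumours 1 and 2 and 128 and 824 in EN-TAM67 tumours 1 and 2. Both EN-TAM67 tumours lay above both EN tumours, and tumour 2 stood far above the other 3. Tumour 1 was 1.06 and tumour 2 was 3.60 above the EN mean on the log2(intensity + 16) scale, which is the scale of every difference below. Against the EN mean intensity, tumour 1 was 2.28-fold and tumour 2 was 14.7-fold higher. The value of EN tumour 2 lay just under its array median. The mean difference of 2.33 moved with the pseudocount: it was 2.61 with a pseudocount of 1 and 1.80 with 64.

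Retn encodes resistin, a hormone of mouse fat cells. It measured 45.6 and 32.7 units in EN tumours and 81.2 and 265 in EN-TAM67 tumours, differences of 0.83 and 2.36 from the EN mean. The groups did not overlap, and again EN-TAM67 tumour 2 was the highest of the 4. The value of EN tumour 2 lay under its array median.

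Promoter windows, from 250 bases before to 50 after a start site, were matched by symbol in a RefSeq table of build GRCm38.p6 for 7 of the 10 genes, which gave 10 windows. They are shown because TAM67 acts on AP-1, which binds DNA directly. Fabp4, Car3 and Scd1 had no window in that table. Cfd and Plin1 had windows but no named probe set, and Pparg, with 3 windows, was too dim to read. The motif counts below are therefore not counts over genes seen to be high in these tumours. The windows of the hormone genes Adipoq (chr16:23146286-23146585, plus strand) and Retn (chr8:3655520-3655819, plus strand) and the window at 1 of 2 start sites of Cidec (chr6:113434715-113435014, minus strand) follow, 5′ to 3′ in the direction of the gene, with matches to the searched motifs in capitals.
Adipoq: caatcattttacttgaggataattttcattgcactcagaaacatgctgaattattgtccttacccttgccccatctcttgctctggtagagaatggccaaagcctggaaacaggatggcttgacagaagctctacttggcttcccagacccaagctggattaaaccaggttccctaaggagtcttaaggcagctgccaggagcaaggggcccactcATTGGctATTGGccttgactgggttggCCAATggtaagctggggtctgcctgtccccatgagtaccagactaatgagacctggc
Retn: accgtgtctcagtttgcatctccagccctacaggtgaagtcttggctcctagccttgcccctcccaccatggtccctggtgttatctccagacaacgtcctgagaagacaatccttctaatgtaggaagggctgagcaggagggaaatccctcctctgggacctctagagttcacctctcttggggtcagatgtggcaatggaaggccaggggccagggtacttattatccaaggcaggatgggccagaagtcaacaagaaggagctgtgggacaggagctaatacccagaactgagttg
Cidec: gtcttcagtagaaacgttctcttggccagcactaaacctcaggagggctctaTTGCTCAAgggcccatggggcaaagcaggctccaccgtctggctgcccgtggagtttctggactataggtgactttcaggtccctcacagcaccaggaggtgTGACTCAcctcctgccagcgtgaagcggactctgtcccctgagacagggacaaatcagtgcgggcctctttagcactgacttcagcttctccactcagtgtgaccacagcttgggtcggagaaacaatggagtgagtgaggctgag

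The motifs searched, on both strands, were the AP-1 site TGANTCA, the nuclear receptor core motif AGGTCA, the C/EBP site TTGCNNAA, the CCAAT box CCAAT and the TATA box TATAAA, none of which overlapped another in the windows shown. The AP-1 letters were in 1 of the 10 windows, that of Cidec, where they begin at position -96 from the start site, against 7.81% of all 32841 windows of 300 bases in the table. The nuclear receptor core motif was in 2 windows, both of Pparg, against 16.3% of all windows. The C/EBP letters were in 3 windows, against 10.8%, and those of Cidec begin at position -198. The Adipoq window holds the CCAAT letters 3 times, beginning at positions -34, -27 and -7. They were in 3 of the 10 windows, against 37.4% of all. The TATA letters were in 1 window, a Pparg window, against 13.6% of all. The Retn window holds none of these letters. A match is a description of the sequence and not a measured binding site.

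Fabp4 encodes the fatty acid binding protein that carries fatty acids inside fat cells. Its brightest probe set measured 250.2 and 183 units in EN tumours and 559 and 2825 in EN-TAM67 tumours. The groups did not overlap, and EN-TAM67 tumour 2 was 5.05 times as bright as EN-TAM67 tumour 1. The differences from the EN mean were 1.32 and 3.63, and a second bright probe set of the gene gave 1.41 and 3.77. The remaining 2 Fabp4 probe sets were dimmer and differed less, by 0.95 and 1.13 and by 0.44 and 1.02, with no overlap between the groups in either. Of 7 other fatty acid binding protein genes, 2 were bright enough to be tested, Fabp5 and Fabp1, the liver form, which was at 0.67 (limma adjusted p = 0.558). Fabp4's close relative Fabp5, the epidermal fatty acid binding protein, followed another course: 254 and 379 units in EN tumours and 680 and 747 in EN-TAM67, nearly level between the EN-TAM67 tumours. Fabp5 was no member and was tested: it rose by 1.16 ± 0.23 (SE, limma adjusted p = 0.0308, n = 2 tumours a group). Of 15 other fits, 6 did not call it. It was not called when EN tumour 1 was left out (0.88), when either EN-TAM67 tumour was left out (1.23 and 1.09), or after median centring (1.06).

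Car3 encodes a carbonic anhydrase abundant in fat, liver and slow muscle. The brightest of its 4 probe sets measured 128 and 64.1 units in EN tumours and 591 and 1994 in EN-TAM67 tumours. Both EN-TAM67 tumours stood well apart from the EN tumours, by 2.50 and 4.23. Among the 13331 genes tested, this difference had rank 1 in tumour 2 of EN-TAM67 and rank 2 in its tumour 1. A second bright probe set differed by 1.31 and 2.71 and a dim one by 0.86 and 1.40. The dimmest, at 3.65 and 24.9 units in EN tumours and 7.24 and 8.99 in EN-TAM67, did not follow the others, and its groups overlapped. No other carbonic anhydrase was called in the limma fit: of 15 on the list 10 were tested, 0 higher and 0 lower, with differences from -0.31 (Car9) to 0.27 (Car13) and a median of 0.026.

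Scd1 encodes the stearoyl-CoA desaturase that puts the double bond into newly made fatty acids. It measured 419 and 341 units in EN tumours and 641 and 2004 in EN-TAM67 tumours, differences of 0.74 and 2.36 without overlap. Its dimmer probe set, at 81.2 and 55.5 units in EN tumours and 91.1 and 123 in EN-TAM67, differed by 0.36 and 0.74, also without overlap. The other desaturase genes did not show this pattern in their values. Scd2, the form of brain and many other tissues, measured 1364 and 1634 units in EN tumours and 1252 and 1258 in EN-TAM67, a difference of -0.25 (limma adjusted p = 0.718). Scd3 was at 0.23 (limma adjusted p = 0.799).

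Pck1 encodes the cytosolic phosphoenolpyruvate carboxykinase, which in fat cells feeds the making of glycerol for triglyceride. Its brightest probe set measured 29.9 and 24.5 units in EN tumours and 54.7 and 80.3 in EN-TAM67 tumours, differences of 0.71 and 1.16. The groups did not overlap, and the step between the EN-TAM67 tumours was the smallest among the tested fat markers, 1.47-fold. Both EN values were under the medians of their arrays. The mean difference of 0.94 moved with the pseudocount: it was 1.26 with a pseudocount of 1 and 0.52 with 64. The other 2 probe sets of Pck1 were dim and differed by 0.13 and 0.23 and by 0.022 and 0.32.

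Cidec encodes a protein that fuses small lipid droplets into a large one. It measured 33.3 and 6.53 units in EN tumours and 23.2 and 75.3 in EN-TAM67 tumours, so the groups overlapped: EN tumour 1 was brighter than EN-TAM67 tumour 1, and EN-TAM67 tumour 2 was above both EN tumours. The differences from the EN mean were 0.23 and 1.45. Both EN values and that of EN-TAM67 tumour 1 were under the medians of their arrays. Cidec passed the filter on dim probe sets only narrowly, with a mean of 5.48 against a threshold of 5.38 on the log2 scale, and without EN-TAM67 tumour 2 it did not pass. Its relative Cidea, a protein of brown fat droplets, was dim in every tumour, at 5.70 and 12.3 units in EN tumours and 3.93 and 13.5 in EN-TAM67.

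Pparg had 1 probe set, which was left out as dim. It measured 6.32 and 6.81 units in EN tumours and 2.07 and 27.5 in EN-TAM67 tumours, with EN-TAM67 tumour 1 the lowest and EN-TAM67 tumour 2 the highest of the 4. All 4 values lay below their array medians, so no level of the receptor's RNA can be read from them.

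**Figure D1:**
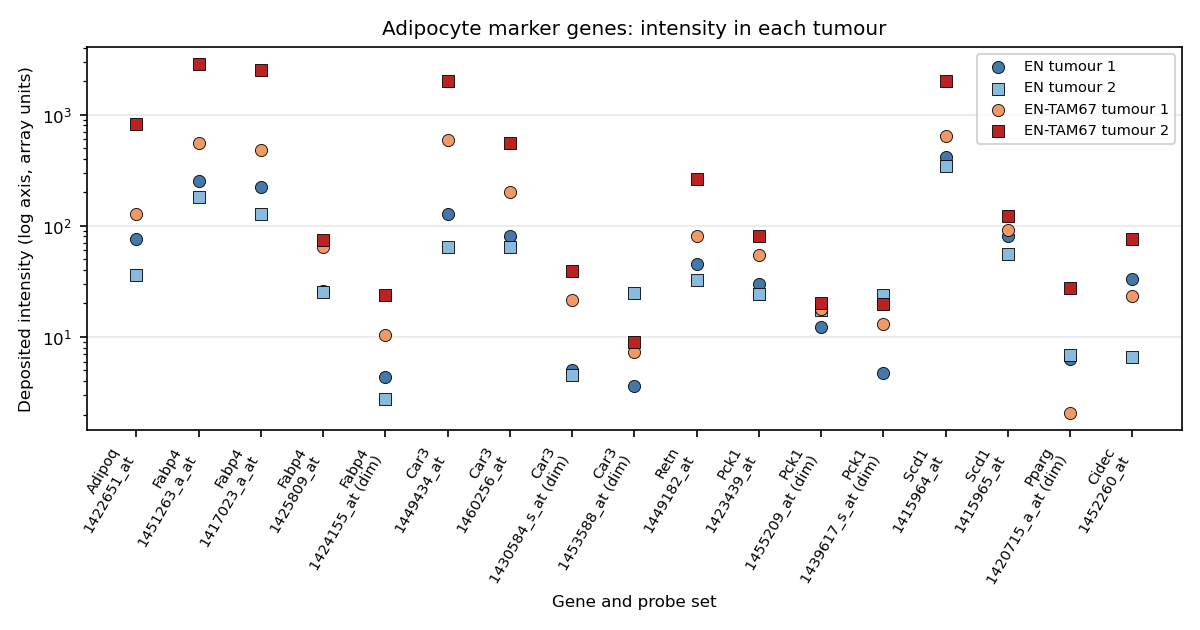
Deposited intensity (log axis) of each of the 17 probe sets of the 8 fat marker genes named on the array, with 1 point for each of the 4 tumours and dim probe sets marked. EN-TAM67 tumour 2 is the highest point in all but 2 of the 17 probe sets, and in 13 both EN-TAM67 tumours lie above both EN tumours.

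Of the 17 probe sets, 16 had a mean difference above 0, and 13 had EN-TAM67 tumours that both lay above both EN tumours. The filter on dim probe sets left 11 of them, standing for 7 genes. For these 7 genes, by their brightest probe set, the median difference in EN-TAM67 tumours was 0.83 for tumour 1 and 2.36 for tumour 2, while over all 13331 genes tested the medians were 0.021 and 0.0098. In tumour 1, 3 of the 7 genes (Adipoq, Fabp4 and Car3) lay at least 2-fold above the EN mean on the log2(intensity + 16) scale, where 1.04% of all genes did. By the ratio of intensities Retn (2.07) and Pck1 (2.01) passed 2-fold there as well. In tumour 2 all 7 did on the log2(intensity + 16) scale, where 1.33% of all genes did, and 3 did in both tumours, against 0.218% of all genes. Among the 10 largest differences of a tumour were 5 of the 7 in tumour 2 and 1 of the 7, Car3, in tumour 1. The groups did not overlap, with EN-TAM67 higher, in 6 of the 7, and in 20.2% of all genes tested. These counts describe values that had already served to choose the genes, and a gene bright only in EN-TAM67 tumours could pass the filter through those tumours.

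The size of the difference rested on which EN-TAM67 tumour was read. EN-TAM67 tumour 2 was brighter than tumour 1 in all 17 probe sets, 6 of them dim, and in all 7 genes, against 49.1% of all genes tested. It was at least 2-fold brighter (log2(intensity + 16) scale) in 6 of the 7 genes, against 1.28% of all genes tested. In the 7 genes the ratio of tumour 2 to tumour 1 intensity ran from 1.47 (Pck1) to 6.43 (Adipoq). The median difference of the 7 genes from EN was 1.59 with both tumours and 2.36 without EN-TAM67 tumour 1. With tumour 2 left out instead it was 0.94 over the 6 genes then left. The EN tumours differed among themselves as well: EN tumour 1 was brighter than EN tumour 2 in all 7 genes, against 42.9% of all genes, by a median of 0.42. The order EN-TAM67 tumour 2, EN-TAM67 tumour 1, EN tumour 1, EN tumour 2 from high to low held for 6 of the 7 genes, Cidec being the exception, and for 5.38% of all genes.

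**Figure D2:**
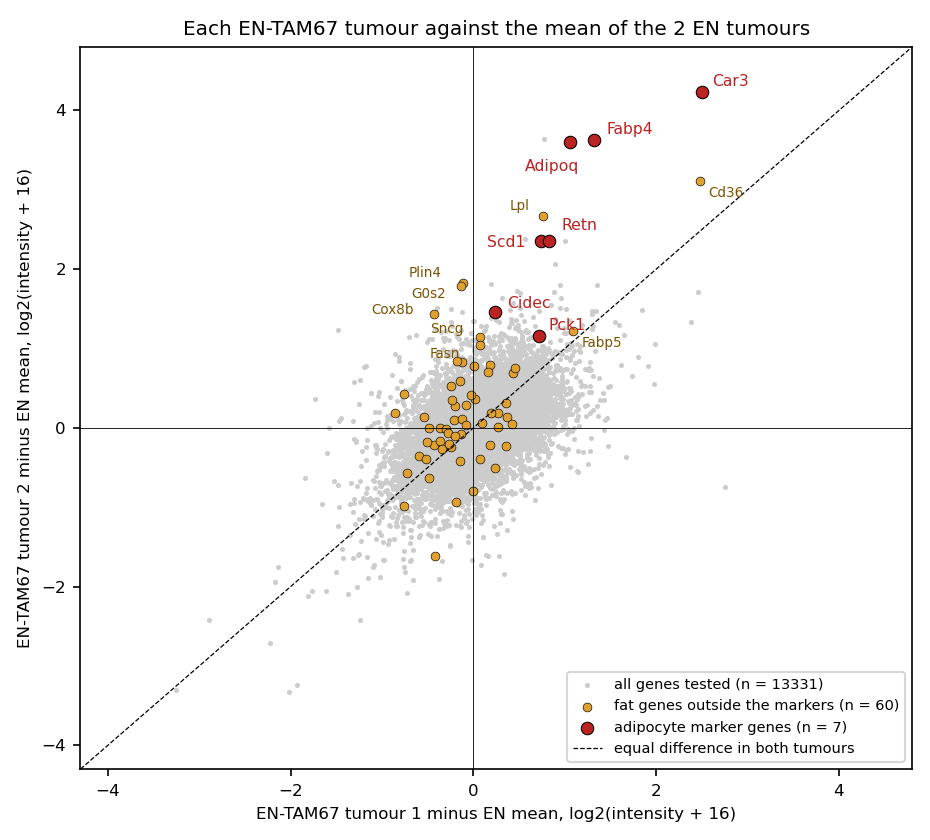
Each point is a gene, with its difference from the EN mean in EN-TAM67 tumour 1 (x axis) and tumour 2 (y axis), both on the log2(intensity + 16) scale. The 7 tested fat markers all lie above the dashed line of equal difference, as do 43 of the 60 other fat genes and 49.1% of all genes. Most of the 60 other fat genes lie among the bulk of genes.

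Other genes of fat cells were read from 6 lists chosen by role, 76 genes outside the markers, of which 60 were tested. The limma fit called 2 of the 60 higher, Cd36 and Fabp5, and 0 lower at an adjusted p under 0.05, where 0.135% of all genes were called higher and 0.42% lower. At an unadjusted p under 0.05, 7 of the 60 were higher and 6 lower, where 4.86% of all genes tested were higher and 4.94% lower. The median difference of the 60 was 0.018, and that of all genes was 0.019. By tumour, the medians of the 60 were -0.14 in EN-TAM67 tumour 1 and 0.11 in tumour 2, against 0.021 and 0.0098 over all genes. EN-TAM67 tumour 2 was brighter than tumour 1 in 43 of the 60, against 49.1% of all genes. It was at least 2-fold brighter (log2(intensity + 16) scale) in 8 of the 60, against 1.28% of all genes. By the brightest probe set, 8 of the 60 lay at least 2-fold above the EN mean in either EN-TAM67 tumour (log2(intensity + 16) scale). These were Cd36 and Fabp5 in both tumours, and Lpl, Plin4, G0s2, Cox8b, Sncg and Fasn in tumour 2 alone. Over all genes tested, 1.04% lay at least 2-fold above in tumour 1, 1.33% in tumour 2 and 0.218% in both. In tumour 1 a second probe set put Lpl (1.09) and Cd36 (0.85) each on the other side of 2-fold. By the ratio of intensities Lipe, the hormone-sensitive lipase, passed 2-fold in tumour 2 as well (2.21).

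Among 7 uptake genes tested, limma called 2 higher and 0 lower. By their mean difference 5 were above 0 and 2 below, with Gpihbp1 at -0.65 without overlap. Cd36, the membrane carrier that brings fatty acids into fat and muscle cells and macrophages, measured 19.1 and 16.7 units in EN tumours and 173 and 278 in EN-TAM67, and it rose by 2.80 ± 0.24 (SE, limma adjusted p = 1.6e-05, n = 2 tumours a group). All 15 other fits called it. Both EN values lay below their array medians, and the difference moved with the pseudocount, from 3.54 with 1 to 1.80 with 64. A second Cd36 probe set measured 25.4 and 19.2 units in EN tumours and 52.8 and 167 in EN-TAM67, differences of 0.85 and 2.26, so it was 3.17 times as bright in EN-TAM67 tumour 2 as in tumour 1. A dim one differed by 0.19 and 0.71. Lpl, the lipase that frees fatty acids from blood lipoproteins, measured 90.6 and 60.3 units in EN tumours and 137 and 556 in EN-TAM67. Its difference of 1.71 ± 0.40 did not pass (limma adjusted p = 0.0754), though it passed when EN tumour 1 (1.95) or EN-TAM67 tumour 1 (2.66) was left out, or when dim probe sets were kept (1.71). With EN-TAM67 tumour 2 left out it was at 0.76 (limma adjusted p = 0.459).

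Of 15 lipid droplet and lipolysis genes tested, 0 were called in either direction by limma and the median was -0.014. Plin4, a droplet coat protein of fat cells, measured 72.8 and 69.0 units in EN tumours and 64.1 and 292 in EN-TAM67. G0s2, an inhibitor of the fat cell lipase, measured 19.1 and 52.6 units in EN tumours and 28.6 and 154 in EN-TAM67. Both were high only in EN-TAM67 tumour 2, and without that tumour their differences turned to -0.12 and -0.14, while without EN-TAM67 tumour 1 both passed (1.82 and 1.79). Plin2, a droplet coat protein found in most cells that store lipid, was at 0.60 ± 0.20 (limma adjusted p = 0.287), with 959 and 1180 units in EN tumours and 1462 and 1805 in EN-TAM67.

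Of 16 fatty acid and triglyceride synthesis genes tested, 0 were called in either direction, with a median of 0.099. The largest values were negative ones. Mlxipl, the carbohydrate-sensing activator of lipid synthesis genes, was at -1.02 ± 0.35 (limma adjusted p = 0.325). Thrsp was at -0.87 ± 0.26 (limma adjusted p = 0.213) by its brightest probe set, but its probe sets did not go 1 way. A second was at -0.084 with overlap. A dim one was at 0.92, with 4.15 and 12.3 units in EN tumours and 10.5 and 61.5 in EN-TAM67. Mlxipl measured 103 and 57.5 units in EN tumours and 53.8 and 14.5 in EN-TAM67, and with 1 array left out its difference ran from -1.62 to -0.42, nearest to 0 without EN-TAM67 tumour 2. Fasn, the fatty acid synthase, measured 181 and 335 units in EN tumours and 260.1 and 524 in EN-TAM67, so its groups overlapped.

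Among 10 adipokine and receptor genes tested, 0 were called in either direction (median 0.037). Sncg, a synuclein found in neurons and fat cells, measured 185 and 149 units in EN tumours and 175 and 386 in EN-TAM67, high in tumour 2 alone. Rbp4, which carries retinol, was at -0.56 (limma adjusted p = 0.566). Retnla, a relative of Retn made by macrophages and fat cells, measured 50.04 and 110 units in EN tumours and 64.4 and 148 in EN-TAM67. Its difference of 0.33 turned to -0.18 without EN-TAM67 tumour 2 and -0.13 without EN tumour 1. Leptin (Lep) was dim, at 12.1 and 23.4 units in EN tumours and 15.5 and 34.2 in EN-TAM67, and was left out by the filter.

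The adipogenic transcription factors did not stand with the markers. Of 9 tested, 0 were called in either direction, 7 were below 0 and the median was -0.20, with Cebpd at -0.46 ± 0.21 (limma adjusted p = 0.492) and Ebf1 at -0.40 (limma adjusted p = 0.717). Cebpa, the C/EBP factor of mature fat cells, measured 164 and 124 units in EN tumours and 93.5 and 159 in EN-TAM67, with overlap. Of 8 brown fat genes 3 were bright enough to be tested, with 0 called: Cox8b, a respiratory chain subunit, measured 24.5 and 20.0 units in EN tumours and 12.3 and 87.5 in EN-TAM67, and Prdm16 was at -0.31. Ucp1, the uncoupling protein that defines brown fat, read 9.69 and 5.46 units in EN tumours and 3.81 and 25.4 in EN-TAM67, below the array medians. Among 5 preadipocyte genes tested 0 were called, with Cd24a at 0.62 and Gata2 at 0.32.

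**Figure D3:**
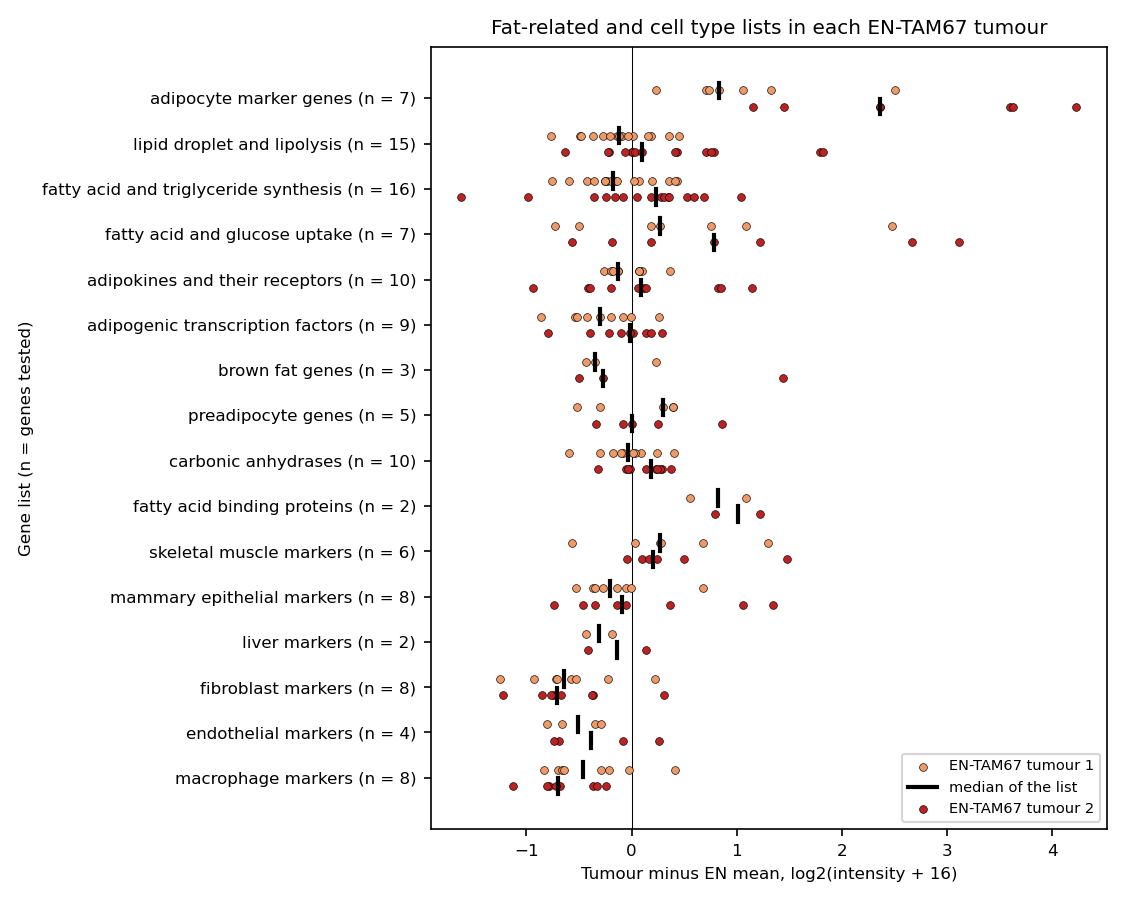
Differences from the EN mean on the log2(intensity + 16) scale for the genes of each list that were tested, with 1 point a gene for EN-TAM67 tumour 1 and for tumour 2 and black bars at the list medians. The fat markers stand at medians of 0.83 and 2.36, and the fibroblast, endothelial and macrophage lists lie below 0 at the median in both tumours.

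Marker lists of other cells were read beside the fat markers. The summed intensity of the 8 fat markers was 988 and 695 in EN tumours, against 2080 and 8095 in EN-TAM67. That of 12 skeletal muscle markers was 414 and 374 in EN tumours, against 523 and 605 in EN-TAM67, with 9 of the 12 higher in EN-TAM67 and none at 0. Car3 is also a muscle gene. Of the 6 muscle markers tested, 4 were above 0 and 2 below. Limma called 1 higher, Myh1, a fast myosin, by 1.39 ± 0.23 (SE, limma adjusted p = 0.0092, n = 2 tumours a group). Of 15 other fits 4 did not call it, and without EN-TAM67 tumour 2 it was at 1.30. Pvalb, a calcium buffer of fast muscle, was at 0.59 (limma adjusted p = 0.423) and Ckm, the muscle creatine kinase, at -0.0044, and 6 of the 12 markers were below the median of the array in every tumour. The sum of 8 fibroblast markers was 15900 and 22222 in EN tumours, against 14716 and 12957 in EN-TAM67, 7 of 8 lower, with Lum at -1.07 and Thy1 at -0.96. The sum of 8 macrophage markers was 17054 and 13576 in EN tumours, against 10279 and 8624 in EN-TAM67, 7 of 8 lower, with Lyz2 at -0.88 and C1qb at -0.82, and that of 7 endothelial markers was 493 and 670 in EN tumours, against 368 and 449.6 in EN-TAM67, 6 of 7 lower, with Cdh5 at -0.74 and Eng at -0.70. A second Cdh5 probe set did not follow, at 50.9 and 45.0 units in EN tumours and 72.3 and 30.9 in EN-TAM67. With probe sets averaged Cdh5 was at -0.37. The 10 mammary epithelial markers summed to 3521 and 3806 in EN tumours, against 2919 and 3195 in EN-TAM67, 6 of 10 lower. Krt14 was at 0.67 (-0.0089 without EN-TAM67 tumour 2) and Krt5 at -0.63. None of the fibroblast, macrophage, endothelial or epithelial genes tested was called by limma with all 4 arrays at the settings used here. Without EN tumour 1, Lum (-1.52), Thy1 (-1.59) and Cdh5 (-1.12) passed, and without EN tumour 2, Lyz2 (-1.10) and C1qb (-0.99) did. Lyz2 also passed with a pseudocount of 64 (-0.87) and with the dimmest 60% left out (-0.88). Without EN tumour 2, Lum was at -0.63, Thy1 at -0.32 and Cdh5 at -0.37. Of 5 liver markers 3 were lower. The liver's albumin gene Alb read 22.5 and 5.997 units in EN tumours and 31.1 and 9.47 in EN-TAM67. Fgb, a fibrinogen chain, was listed at 0 and read 1.89 in EN tumours and 101.5 and 2.85 in EN-TAM67. Liver genes Ttr and Apoa1 were at -0.30 and -0.15 (Apoa1 at 0.14 without EN-TAM67 tumour 1). The part of other cell types in the fat marker values was not tested.

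The genes outside the markers whose 4 values lay closest to the median of the 7 tested markers were ranked by Euclidean distance over the 4 tumours, after each gene's mean on the log2(intensity + 16) scale was removed. Retn and Scd1 lay at 0.030 and 0.098 from that median and Car3, the most distant marker, at 1.79, while the median distance of all other genes was 2.00. The closest were Tlr6 (0.27), a toll-like receptor, and Lpl (0.28), the only one of the 10 on the fat lists. Lrg1, an acute phase glycoprotein (0.52), Ikzf3, a lymphocyte zinc finger factor (0.56), Wfdc21 (0.63), Lrp2bp (0.67), the kidney glucose transporter Slc5a2 (0.67), Abcd2, a peroxisomal fatty acid transporter (0.68), Slurp1 (0.68) and Selenbp1 (0.73) followed. Each of these 10 had EN-TAM67 tumours that both lay above both EN tumours, as the measure favours, and none passed the limma test (adjusted p from 0.0754 to 0.445). Tlr6 measured 18.9 and 6.07 units in EN tumours and 39.7 and 126 in EN-TAM67, Lrg1 59.7 and 77.2 against 108 and 421, and Abcd2 17.6 and 22.7 against 53.3 and 109. With 4 values to a gene, such likeness is a weak measure.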

How the data were processed

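Each array came as 1 deposited value per probe set, an intensity on a linear scale. The steps by which the authors summarised probes, corrected background and scaled arrays are not given in the sources used here. RNA was extracted with Trizol and cleaned on columns, and biotin-labelled cRNA was hybridised, per the labels. Gene names came from GEO's annotation of the platform (34945 with 1 symbol, 932 with several, 9160 with none, beside 64 controls), and a RefSeq table of GRCm38.p6 changed 0 symbols.

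Values were taken as log2(intensity + 16). Controls and the dimmest 40% of probe sets by mean log2 value were left out, and the brightest probe set stood for a gene (13331 genes). The limma package (3.58.1, under R 4.3.3) fitted the group difference by lmFit, and eBayes moderated the variance along an intensity trend. Tests were two-sided, without a term for the tumour number, and a gene was called at a Benjamini-Hochberg adjusted p under 0.05. The fit was run on simulated data with independent noise, with changes added only to the brighter genes. That run did not cover changes in dim genes or shifts shared by the genes of a tumour. Plots were drawn with matplotlib 3.10.9.

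The markers, lists, tests and alternatives were chosen with earlier results of these data known. Named genes are every marker; from each list the genes called or the 2 largest differences; Fabp5, Scd2, Scd3, Scd4, Cidea, Plin2 and Retnla (Scd4 not analysed here); and the 10 genes closest to the markers. Others (Krt8, Krt18, Cebpa, Lep, Ucp1, Fasn, Lipe, Ckm, Alb, Fgb, Hp, Gpd1) were named after their values were seen. Alternatives were other filters, scalings, pseudocounts, probe set rules and variance models, the tumour number as a replicate block, and each array left out. No array was dropped or imputed in the main results.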

Additional observations from a re-analysis of the deposited data

How the results depend on the processing

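The median difference of the tested fat markers ran from 0.94 without EN-TAM67 tumour 2 to 2.36 without EN-TAM67 tumour 1. With the dimmest 60% left out it was 2.33 over 5 genes. No alternative called a fat gene outside the markers lower. The higher calls among them were 2 at the main settings, and 1 (Cd36) with median centring or without an intensity trend. They were 3 (Cd36, Fabp5 and Lpl) with dim probe sets kept or with every probe set fitted separately. Over all genes, 18 were higher and 56 lower, 9 and 29 with quantile normalization, 7 and 28 with probe sets averaged, and 1 and 4 without an intensity trend. Median centring left 7 higher. Leaving out 1 array gave 11 to 71 higher and 11 to 85 lower. With the tumour number as a replicate block, 3 genes were higher and 8 lower, and 1 fat gene outside the markers was higher (Cd36). Nothing in the labels ties equal tumour numbers together. The deviations of EN tumour 1 and EN-TAM67 tumour 1 from their group means correlated at -0.065 across genes and at -0.29 over the tested fat markers. With 2 tumours a group such a correlation cannot exclude a pairing, and none was assumed in the main fit. With 1 array left out, the differences of these genes changed sign: Plin4 ran from -0.12 to 1.82, G0s2 from -0.14 to 1.79, Retnla from -0.18 to 0.85 and Krt14 from -0.0089 to 1.34, each lowest without EN-TAM67 tumour 2 and highest without EN-TAM67 tumour 1, and Apoa1 from -0.44 to 0.14. Retnla was also below 0 without EN tumour 1 (-0.13). The median of all genes moved by under 0.1 under each scaling. The cause of these shifts was not tested. No depth or detection call was used, and values below the array medians of about 35.6 to 40.8 units say little.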

Other observations

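Hp, the haemoglobin-binding acute phase protein haptoglobin made by liver and fat cells, stood on no list and was named after its values were seen. It measured 106 and 44.1 intensity units in EN tumours, against 130 and 1049 in EN-TAM67, with no overlap between the groups, and its difference of 3.64 in EN-TAM67 tumour 2 was second only to that of Car3 among 13331 genes, while in EN-TAM67 tumour 1 it was 0.77, rank 381. The limma fit did not call it (adjusted p = 0.122). Gpd1, which makes glycerol phosphate for triglyceride, had probe sets that went different ways. The one that stood for the gene measured 55.1 and 59.1 units in EN tumours, against 82.5 and 102 in EN-TAM67. Another measured 17.04 and 37.4 against 50.3 and 191. A further one, at 39.6 and 32.4 against 30.6 and 36.4, overlapped. A dim one measured 19.1 and 49.5 against 0.965 and 3.43.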
